A study of Mus musculus with 6 samples.

Results

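Cytochrome P450 enzymes are membrane-bound haem proteins that insert an oxygen atom into their substrates. In skin they are known for handling foreign compounds and for making or breaking down lipid signals, sterols, steroid hormones, vitamin D and retinoic acid. Most P450s of the endoplasmic reticulum take their electrons from a single reductase, Por, and those of mitochondria from ferredoxin. Many are regulated by ligand-activated receptors such as the aryl hydrocarbon receptor Ahr.

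The genes described here are the protein-coding genes of the deposited RNA-seq table whose symbol is Cyp followed by a family number, a subfamily letter and a gene number. They number 56 of 38258 genes. A further 2 genes with symbols of this form are not reported here. The family was picked because *Cyp4b1* is among the steepest falls of the dataset, so its difference between groups is given below as a description with no test. The other members were chosen by name, but with earlier results of these data known.

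RNA came from epidermal cells of newborn (postnatal day 0) mouse back skin, sorted as EpCAM-positive, Sca1-positive and high for α6-integrin, a combination found on basal cells of the epidermis. One group of 3 libraries is labelled Eed -/- Ring1a-/- Ring1b-/- (3KO), and the other group of 3 is labelled control. Both Polycomb repressive complexes are targeted: Eed belongs to the histone methyltransferase complex, and Ring1a and Ring1b ubiquitinate histone H2A. The driver of the deletions and the genotype of the controls are not given in the sources used here, nor whether each replicate is its own animal; the p-values below reflect library-to-library spread alone.

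Library totals of the normalized counts ran between 21896285 and 29805729. Among the genes meant to be deleted, the targeted gene Eed was lower in the libraries labelled 3KO (limma adjusted p = 0.0144; exact permutation p = 0.1, the smallest possible), a call lost without 3KO replicate 1 (adjusted p = 0.0615) or 3 (0.0546) or control replicate 2 (0.0525). In contrast, *Ring1* was higher (67.7, 104 and 112 against 11.8, 8.72 and 23.1 in controls) and *Rnf2*, which encodes Ring1b, did not pass (adjusted p = 0.417). The deleted exons are not given, and exons left in place can still be transcribed and counted. Because *Ring1* went against the labels, directions below are those of the libraries labelled 3KO. The 8 basal epidermal markers were all present, with summed normalized counts of 187270 to 198000 in the libraries labelled 3KO and 369200 to 478820 in the controls; 6 fell and 2 rose. Of the genes for the sorted surface proteins, *Itga6* averaged 7670.0 in the libraries labelled 3KO and 23785 in the controls, *Epcam* 3258 in the libraries labelled 3KO and 1788 in the controls, and *Ly6a*, which encodes Sca1, 1393 in the libraries labelled 3KO and 173 in the controls. Control replicate 3 stood apart: its 6 fibroblast markers summed to 30213, against 9336 to 14559 in the libraries labelled 3KO and 8090 and 12400 in the other controls, and its ribosomal RNA share was 36.6%, against 22.5% to 31.4% in the other 5 libraries.

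All 56 named P450 genes were above 0 in at least 1 library and 31 in all 6. Of all 38258 genes of the deposited data, 37376 were above 0 in at least 1 library. The 56 are not the whole mouse family. Other annotated P450 genes, such as *Cyp1a2*, *Cyp2b13* and *Cyp4f15*, are not among them. Expression was thin for most of them. Only 11 averaged at least 100 normalized counts over the 6 libraries, 31 reached the mean of 10 required for testing, and 13 lay below 1. In the libraries labelled 3KO 10 members were listed at 0 throughout, and in the controls 7. An exact 0 in estimated counts can be a failed estimate, and in bulk RNA fewer cells of a type cannot be told apart from less RNA per cell.

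Of the 30 tested members other than *Cyp4b1*, 6 were higher and 6 lower in the libraries labelled 3KO and 18 did not pass (limma, Benjamini-Hochberg adjusted p below 0.05 over 23006 genes). Among all genes tested, 20.5% were higher and 15.3% lower, and among protein-coding genes 25.5% and 16.5%. The median log2 change of these 30 was 0.13, beside 0.01 over all genes tested and 0.08 over protein-coding genes. Members pass the filter on the mean of all libraries: of the 31, 5 had a 3KO mean and 4 a control mean under 10, and those genes passed the filter through the other group. Among called genes, *Cyp2b10*, *Cyp2g1* and *Cyp2f2* passed it only through the controls. *Cyp46a1* and *Cyp2r1* passed it only through the libraries labelled 3KO. Counts that include these genes depend on the filter. Log2 changes are given ± SE as libraries labelled 3KO minus controls, computed after adding 1 to each normalized count, so changes of low genes are understated.

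**Figure D1:**
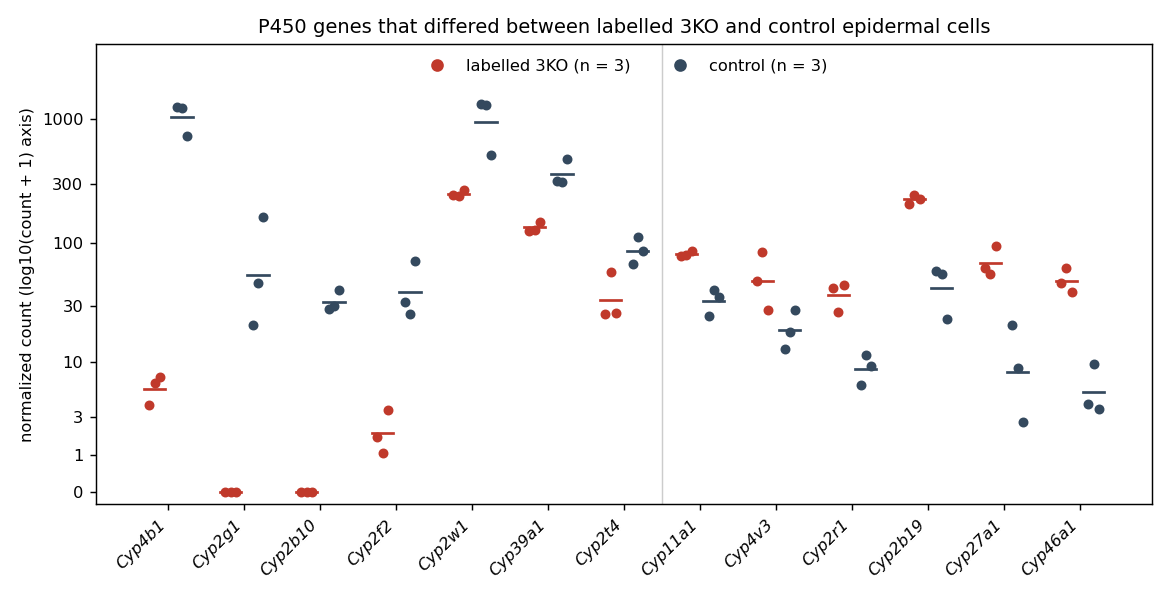
Normalized counts per library (log10(count + 1) axis, bars are means on that axis) of *Cyp4b1* and the 12 other P450 genes that passed the test, ordered by log2 change, with 3 libraries labelled 3KO left of 3 controls for each gene. *Cyp4b1* stood at 3.97 to 7.39 in the libraries labelled 3KO against 721 to 1244 in the controls, and *Cyp2g1* and *Cyp2b10* were listed at 0 in all 3 libraries labelled 3KO.

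The promoters of 5 members with contrasting changes are shown for their content of CG dinucleotides, the sequence feature shared by CpG islands, at which Polycomb complexes are known to gather in mammals. They are RefSeq windows of 300 bases on GRCm38, 250 before to 50 after the annotated start, 5′ to 3′, with every CG in capitals. *Cyp4b1* (chr4:115647672-115647971, minus strand), *Cyp2w1* (chr5:139352366-139352665, plus strand) and *Cyp2b10* (chr7:25897408-25897707, plus strand) were low in the libraries labelled 3KO. *Cyp2b19* (chr7:26756892-26757191, plus strand) and *Cyp46a1* (chr12:108334066-108334365, plus strand) were high there.
Cyp4b1: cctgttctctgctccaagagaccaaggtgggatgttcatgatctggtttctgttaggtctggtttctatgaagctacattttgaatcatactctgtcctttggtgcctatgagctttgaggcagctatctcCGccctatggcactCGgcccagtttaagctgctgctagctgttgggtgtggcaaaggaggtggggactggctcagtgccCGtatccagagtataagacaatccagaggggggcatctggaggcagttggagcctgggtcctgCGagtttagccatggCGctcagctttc
Cyp2w1: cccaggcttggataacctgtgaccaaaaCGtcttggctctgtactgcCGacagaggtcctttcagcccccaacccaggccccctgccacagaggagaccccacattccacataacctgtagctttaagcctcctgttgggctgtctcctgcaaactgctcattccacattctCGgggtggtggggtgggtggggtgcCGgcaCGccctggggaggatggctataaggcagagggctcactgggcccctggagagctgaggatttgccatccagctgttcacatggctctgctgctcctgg
Cyp2b10: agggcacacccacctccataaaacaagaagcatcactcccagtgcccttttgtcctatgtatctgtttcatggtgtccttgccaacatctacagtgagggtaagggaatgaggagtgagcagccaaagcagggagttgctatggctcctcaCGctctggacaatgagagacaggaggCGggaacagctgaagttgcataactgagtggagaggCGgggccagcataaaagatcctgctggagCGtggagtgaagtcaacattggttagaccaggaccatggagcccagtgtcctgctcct
Cyp2b19: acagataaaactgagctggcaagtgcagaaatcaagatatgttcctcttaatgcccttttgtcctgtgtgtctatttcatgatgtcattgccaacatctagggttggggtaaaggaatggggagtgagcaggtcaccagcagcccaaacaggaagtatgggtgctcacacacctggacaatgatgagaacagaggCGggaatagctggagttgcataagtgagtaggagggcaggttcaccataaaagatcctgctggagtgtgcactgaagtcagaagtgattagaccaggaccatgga
Cyp46a1: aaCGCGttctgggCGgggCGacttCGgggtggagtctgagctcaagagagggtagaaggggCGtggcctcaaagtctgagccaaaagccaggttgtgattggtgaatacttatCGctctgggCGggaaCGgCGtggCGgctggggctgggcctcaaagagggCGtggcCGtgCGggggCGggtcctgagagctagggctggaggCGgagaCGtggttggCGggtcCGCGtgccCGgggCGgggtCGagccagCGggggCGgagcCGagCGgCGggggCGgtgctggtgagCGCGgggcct

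*Cyp46a1* held 31 CG dinucleotides in its window, a number that 10.6% of 32851 mouse promoter windows reach. *Cyp2b10* held 4 and *Cyp2b19* 1, although they belong to the same subfamily. The windows of *Cyp4b1* and *Cyp2w1* each held 5. A window within 500 bases of the start in the deposited table was found for 39 members. The 5 windows of genes that were higher in the libraries labelled 3KO held 1 to 31 CG dinucleotides with a median of 17, and the 4 of lower genes held 0 to 5 with a median of 4. The 12 windows of genes that did not pass had a median of 5, and the median over all windows was 7. Windows of higher and lower genes outside the family were not counted apart, and a part of Polycomb complexes was not tested. The letters GCGTG, the core of the Ahr response element, were searched on both strands and stood in the windows of 3 of the 5 higher and 2 of the 4 lower genes, beside 32.4% of all windows. A match is a description of letters, not a site.

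**Figure D2:**
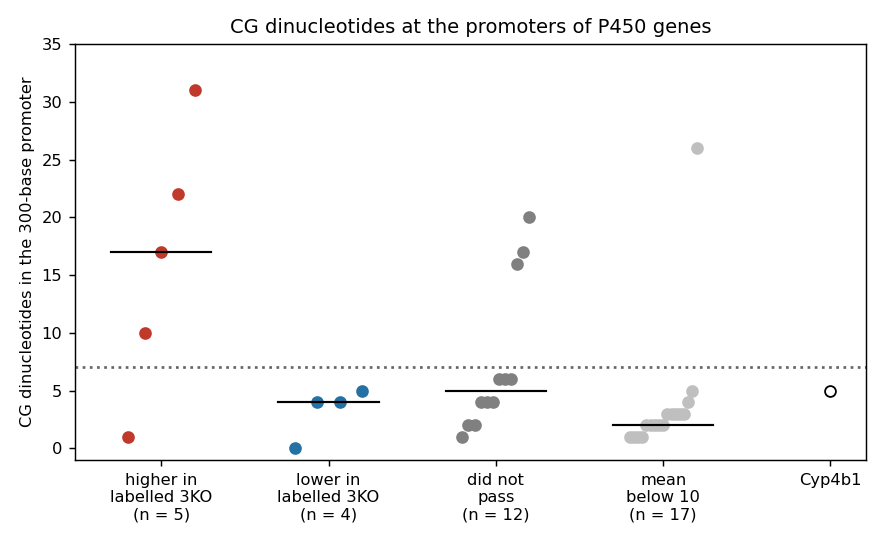
Number of CG dinucleotides in the 300-base promoter window of each P450 gene with a window, by outcome of the comparison of libraries labelled 3KO with controls; bars are medians and the dotted line is the median of 7 over all mouse windows. The 5 higher genes with a window hold 1 to 31 (median 17) and the 4 lower genes 0 to 5 (median 4), too few windows to compare the groups. *Cyp11a1* (higher), *Cyp39a1* and *Cyp2g1* (lower) have no window here.

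*Cyp4b1*, whose product hydroxylates medium-chain fatty acids and activates certain toxins in mouse and rabbit, lies on chromosome 4 (115624725 to 115647723, minus strand, GRCm38). It had 3.97, 6.49 and 7.39 normalized counts in the libraries labelled 3KO, against 1244, 1212 and 721 in the controls, a log2 change of −7.25 ± 0.31. *Cyp2w1*, an orphan enzyme whose human counterpart is known from fetal gut and colorectal tumours, had 242, 237 and 268 in the libraries labelled 3KO and 1305, 1276 and 506 in the controls. It fell by 1.92 ± 0.33 on the log2 scale (limma adjusted p = 0.00184), with no overlap between the groups. Divided by transcript length, these were the leading members in controls, with 974 normalized counts per kilobase for *Cyp2w1* and 702 for *Cyp4b1*, ahead of *Cyp4f13* at 185 and *Cyp39a1* at 179. In the libraries labelled 3KO *Cyp2w1* stood at 236 and *Cyp4f13* at 196 per kilobase, and *Cyp4b1* at 3.94.

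The make-up of the P450 transcripts is given as a description with no test, since *Cyp4b1*, whose fall chose the family, makes up much of it. *Cyp4b1* and *Cyp2w1* together held 17.4%, 17.0% and 17.2% of the summed level per kilobase in the libraries labelled 3KO and 65.2%, 63.5% and 43.2% in the controls. The summed normalized count of all 56 genes was 2509.6, 2577 and 2904 in the libraries labelled 3KO and 4742, 4737 and 3859 in the controls. Without these 2 genes, a division made after the values were seen, it was 2263, 2333 and 2629 in the libraries labelled 3KO and 2193, 2249 and 2632 in the controls, and the groups overlapped.

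**Figure D3:**
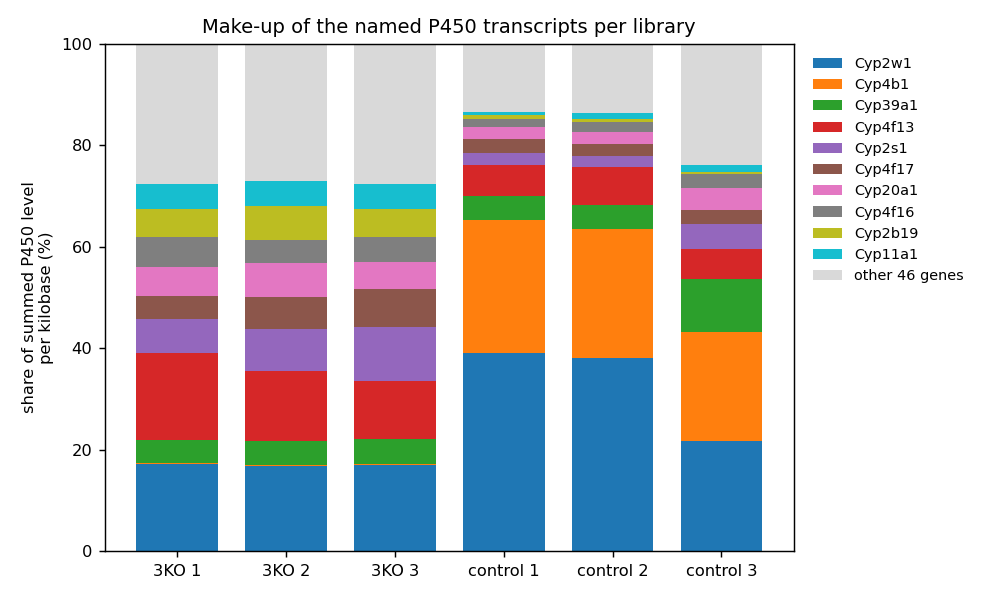
Share (%) of each library's summed P450 level per kilobase of transcript held by 10 members, with the remaining members in light grey; 3 libraries labelled 3KO on the left and 3 controls on the right. *Cyp4b1* holds 21.6% to 26.1% in the controls and at most 0.325% in the libraries labelled 3KO.

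The class for foreign compounds holds the members of families 1 to 3 other than *Cyp2r1*, *Cyp2u1* and the Cyp2j genes, which are grouped below by their substrates. Classes were set mainly by family number. This one therefore also holds the orphan enzyme *Cyp2w1* and the arachidonic acid epoxygenase *Cyp2b19*, and class counts would change if grouped strictly by substrate. Of 11 tested, 5 fell, 1 rose and 5 did not pass, beside 15.3% lower and 20.5% higher over all genes. Those that fell include *Cyp2b10*, *Cyp2g1* and *Cyp2f2*, which were tested only because of their control values. *Cyp2b10*, the phenobarbital-induced enzyme of mouse liver, was listed at 0 in all libraries labelled 3KO and had 28.8, 30.1 and 40.7 in the controls (adjusted p = 0.000234). *Cyp2g1*, known from olfactory mucosa, was likewise listed at 0 in all libraries labelled 3KO, against 21.0, 46.8 and 162 in the controls (adjusted p = 0.000425). *Cyp2f2*, known for naphthalene metabolism in club cells of the mouse lung, had 1.78, 1.06 and 3.58 in the libraries labelled 3KO and 32.8, 26.1 and 70.3 in the controls (log2 change −3.76 ± 0.56, adjusted p = 0.000851). For all 3 genes every library labelled 3KO lay below every control, and the highest value was that of control replicate 3.

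Inner root sheath markers (7 genes, all detected, 5 lower and 1 higher of 6 tested) summed to 663 to 718 in the libraries labelled 3KO and to 504, 800 and 1125 in controls 1, 2 and 3, with the highest sum in the control in which these 3 genes were highest. *Tchh*, the member that rose, made up nearly all of the sum in the libraries labelled 3KO (711, 663 and 701). The inner root sheath keratin *Krt25* was listed at 0 in all libraries labelled 3KO and had 55.1, 108 and 216 in the controls. *Krt71* had 2.66, 0 and 1.43 in the libraries labelled 3KO and 38.0, 92.5 and 177 in the controls. These keratins thus fell in the same libraries as *Cyp2b10*, *Cyp2g1* and *Cyp2f2*. Their part in the result was not tested. A peak in control replicate 3 was not particular to inner root sheath markers. Sebaceous gland markers summed to 3085 there, against 805 and 943 in the other controls. Adipocyte markers summed to 1132, against 179 and 297, and erythroid markers to 1348.5, against 373 and 414. Among the controls, the basal epidermal, melanocyte and skeletal muscle sums did not peak there. Without control replicate 3 the calls of *Cyp2b10*, *Cyp2g1* and *Cyp2f2* were kept.

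*Cyp2b19*, an arachidonic acid epoxygenase of differentiating mouse keratinocytes, went the other way. It had 203, 243 and 227 in the libraries labelled 3KO and 59.1, 55.9 and 23.6 in the controls (log2 change 2.36 ± 0.34, adjusted p = 0.000736). In the libraries labelled 3KO it was the sixth most abundant member per kilobase. *Cyp2t4* fell, with 26.0, 57.7 and 26.3 in the libraries labelled 3KO against 67.2, 110.4 and 85.1 in the controls (log2 change −1.31 ± 0.36, adjusted p = 0.0202). That call was lost without 3KO replicate 1 (adjusted p = 0.0769) or 3 (0.076) or control replicate 2 (0.0743).

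*Cyp1b1*, an Ahr target that hydroxylates oestradiol, had 114, 108 and 166 in the libraries labelled 3KO against 49.8, 68.3 and 248 in the controls and did not pass (adjusted p = 0.571). The high control was replicate 3, in which fibroblast markers were also highest. Without it the log2 change was 1.11 and the gene passed (adjusted p = 0.00943). *Cyp2s1*, a P450 of epithelia, had 195, 236 and 343 in the libraries labelled 3KO and 169, 141 and 237 in the controls (adjusted p = 0.196). *Cyp3a13* (22.0 ± 5.52 against 52.4 ± 29.3 in controls), the ethanol-metabolizing *Cyp2e1* (25.7 ± 7.77 against 44.4 ± 2.03) and *Cyp2d22* (34.0 ± 9.05 against 16.0 ± 14.7; SD, n = 3 libraries per group) did not pass either, and were named after their values were seen. Without control replicate 3, *Cyp2d22* and *Cyp2s1* passed as higher and *Cyp3a13* as lower, and the counts over all tested P450 genes became 9 higher and 8 lower. The classical Ahr target *Cyp1a1* was listed at 0 in all libraries labelled 3KO and had 2.62, 0 and 1.00 in the controls, too low to test.

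**Figure D4:**
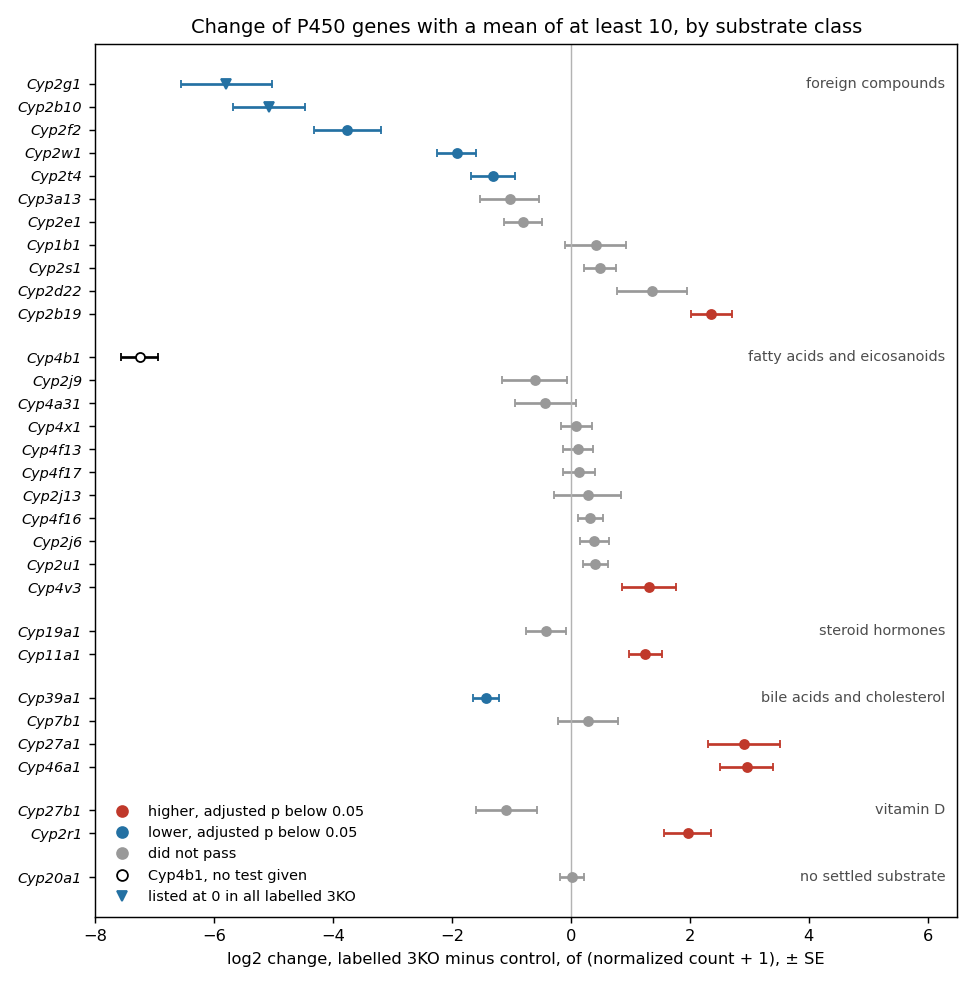
Log2 change of (normalized count + 1), libraries labelled 3KO minus controls, ± SE, for the 31 members with a mean of at least 10. Genes are grouped by substrate class, set mainly by family number, and coloured by the limma call. Of the 11 tested genes for foreign compounds 5 fell, beside 15.3% of all genes. Of those that fell, *Cyp2b10*, *Cyp2g1* and *Cyp2f2* were tested only because of their control values. Among tested genes for fatty acids and eicosanoids 9 of 10 did not pass. Triangles mark genes listed at 0 in all libraries labelled 3KO, whose log2 value depends on the pseudocount.

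Most fatty acid and eicosanoid P450s other than *Cyp4b1* did not pass. Of 10 tested, 1 rose, 0 fell and 9 did not pass, beside 20.5% higher and 15.3% lower over all genes. At an unadjusted limma p below 0.05 the count that fell was also 0. *Cyp4f13*, of the subfamily that hydroxylates leukotrienes and long-chain fatty acids, had 293, 241 and 224 in the libraries labelled 3KO and 243, 305 and 166 in the controls (log2 change 0.12 ± 0.25, adjusted p = 0.744). *Cyp4f17* had 151 ± 45.7 in the libraries labelled 3KO and 135 ± 23.8 in the controls. *Cyp4f16*, at 160.1 ± 18.4 in the libraries labelled 3KO and 128 ± 16.3 in the controls, shares 26.8% of its 31-base words with other genes, mainly *Cyp4f37*, so reads could be divided wrongly between them.

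*Cyp4v3*, the mouse counterpart of a human fatty acid hydroxylase whose loss damages the retina, rose. It had 48.8, 83.7 and 27.9 in the libraries labelled 3KO and 13.1, 18.5 and 28.1 in the controls (log2 change 1.31 ± 0.45, adjusted p = 0.048). The groups overlapped, and the call was lost with no filter on low values (adjusted p = 0.0539), quantile normalization (0.0803), without trend and robust (0.0673), with GC and length removed (0.0625), with replicate number as a block (0.0627) and without 3KO replicate 1 (0.118) or 2 (0.184) or control replicate 1 (0.135) or 2 (0.101). Among the arachidonic acid epoxygenases of the Cyp2j subfamily, *Cyp2j6* had 157, 164 and 236 in the libraries labelled 3KO and 132, 116 and 174 in the controls (adjusted p = 0.246). *Cyp2j9* had 44.4, 42.7 and 60.1 in the libraries labelled 3KO and 151, 98.9 and 27.2 in the controls (adjusted p = 0.423). The low control was replicate 3, and without it *Cyp2j9* passed as lower (log2 change −1.32, adjusted p = 0.00485).

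*Cyp2u1*, a hydroxylase of long-chain fatty acids, had 97.8, 96.4 and 102 in the libraries labelled 3KO, all above the 73.6, 68.7 and 80.4 of the controls, without passing (log2 change 0.41 ± 0.21, adjusted p = 0.165). *Cyp4x1* averaged 55.0 ± 2.69 in the libraries labelled 3KO and 51.9 ± 9.12 in the controls (adjusted p = 0.804). *Cyp20a1*, an orphan P450 with no settled substrate, averaged 184 ± 14.8 in the libraries labelled 3KO and 183 ± 29.0 in the controls (SD, n = 3 libraries per group; log2 change 0.02 ± 0.20, adjusted p = 0.955).

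Sterol and steroid enzymes moved in both directions. Of the 4 tested genes for bile acids and cholesterol, 2 rose and 1 fell, beside 20.5% higher and 15.3% lower over all genes. With 4 genes these counts are not a result for the class. *Cyp46a1*, the cholesterol hydroxylase known from neurons, had 46.4, 61.8 and 39.2 in the libraries labelled 3KO and 4.10, 9.63 and 3.67 in the controls (log2 change 2.96 ± 0.44, adjusted p = 0.000866). *Cyp39a1*, which hydroxylates the product of that enzyme, had 125, 126 and 148 in the libraries labelled 3KO and 315, 308 and 469 in the controls (log2 change −1.42 ± 0.22, adjusted p = 0.000998). Neither pair of groups overlapped. *Cyp27a1*, the mitochondrial sterol hydroxylase of bile acid synthesis, had 62.3, 55.3 and 94.3 in the libraries labelled 3KO and 21.1, 8.87 and 2.66 in the controls (log2 change 2.91 ± 0.60, adjusted p = 0.00464). Melanocyte markers (5 genes, 4 of them higher) summed to 837 to 1184 in the libraries labelled 3KO and 299.8 to 404 in the controls, and Schwann cell markers (3 genes, 1 higher) to 129 to 143 in the libraries labelled 3KO and 40.8 to 84.3 in the controls; their part in these results was not tested.

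Of the steroid hormone enzymes 2 of 5 were tested, of which 1 rose and 1 did not pass. Over all genes tested, 20.5% were higher and 15.3% lower. *Cyp11a1*, which cleaves the cholesterol side chain in the first step of steroid synthesis, rose, with 77.2, 78.7 and 86.1 in the libraries labelled 3KO and 25.0, 40.8 and 35.7 in the controls (log2 change 1.26 ± 0.27, adjusted p = 0.00618). *Cyp19a1* averaged 31.7 in the libraries labelled 3KO and 44.7 in the controls, with no overlap. It did not pass (log2 change −0.42 ± 0.33, limma adjusted p = 0.364). Of the vitamin D enzymes 2 of 3 were tested, of which 1 rose and 1 did not pass. *Cyp27b1* averaged 11.7 in the libraries labelled 3KO and 25.7 in the controls, and the groups overlapped. It did not pass (log2 change −1.09 ± 0.51, limma adjusted p = 0.131). *Cyp19a1* and *Cyp27b1* were named after their values were seen. *Cyp2r1*, which adds the first hydroxyl group to vitamin D, rose, with 42.3, 27.0 and 45.2 in the libraries labelled 3KO and 6.28, 11.6 and 9.24 in the controls (log2 change 1.96 ± 0.40, adjusted p = 0.0042).

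The 25 members with a mean below 10 were not tested. *Cyp26a1*, which breaks down retinoic acid, had 8.90, 17.0 and 10.1 in the libraries labelled 3KO and was listed at 0 in every control. *Cyp4a32* was listed at 0 in every library labelled 3KO and had 13.1, 25.1 and 5.03 in the controls, and its neighbour *Cyp4a10* likewise was listed at 0 against 9.19, 4.35 and 6.03 in the controls. With no filter on low values *Cyp26a1* passed as higher (adjusted p = 0.000967) and *Cyp4a32* (0.002) and *Cyp4a10* (0.00363) as lower. *Cyp4a32* shares 62.8% of its 31-base words with other genes and *Cyp4a10* 44.9%, chiefly with each other, so the division of reads between them is uncertain. *Cyp17a1*, a steroid enzyme of gonads and adrenals, had 4.39, 0 and 2.93 in the libraries labelled 3KO and 22.8, 12.6 and 2.73 in the controls. *Cyp2d26* and the adrenal enzyme *Cyp11b1* stayed at or below 11.2 in every library.

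Several members lie side by side in the genome. Of the 7 members on chromosome 7 between 25802475 and 27158668 (GRCm38), *Cyp2b10*, *Cyp2g1*, *Cyp2f2* and *Cyp2t4* fell, *Cyp2b19* rose, *Cyp2s1* did not pass and *Cyp2b23* was not tested. Over all genes 15.3% were lower and 20.5% higher. Of the members that fell, *Cyp2b10*, *Cyp2g1* and *Cyp2f2* were tested only because of their control values. The call of *Cyp2t4* was lost without some single libraries. *Cyp2b19* starts at 26757142 and ends at 26772630. *Cyp2g1*, which was listed at 0 in the libraries labelled 3KO, starts at 26808892 as the next gene of the deposited data, on the same strand. *Cyp2b10* shares 19.4% of its 31-base words with other genes, and *Cyp2f2* overlaps the antisense gene *Gm15883*, with which it shares 10.9% and whose reads could not be told apart without strand. The last gene, *Cyp2t4*, overlaps the end of *Egln2*, which lies on the other strand. *Egln2* averaged 310.2 in the libraries labelled 3KO and 980 in the controls (log2 change −1.66 ± 0.18). *Cyp2t4* shares 0% of its 31-base words with other genes. On chromosome 4, the 5 members between 115106323 and 115647723 run from *Cyp4x1*, which did not pass, through the 3 Cyp4a genes to *Cyp4b1*. *Cyp4a31*, between *Cyp4a10* and *Cyp4a32*, had 11.7, 10.7 and 5.81 in the libraries labelled 3KO and 7.58, 15.7 and 16.3 in the controls. It did not pass (log2 change −0.43 ± 0.51, limma adjusted p = 0.551). It shares 32% of its 31-base words with other genes, mainly *Cyp4a32*. Of the 6 Cyp2j members on chromosome 4 (96027534 to 96664154) and of the 6 Cyp4f members on chromosome 17, 3 each were tested and did not pass, and 3 each were too low to test.

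**Figure D5:**
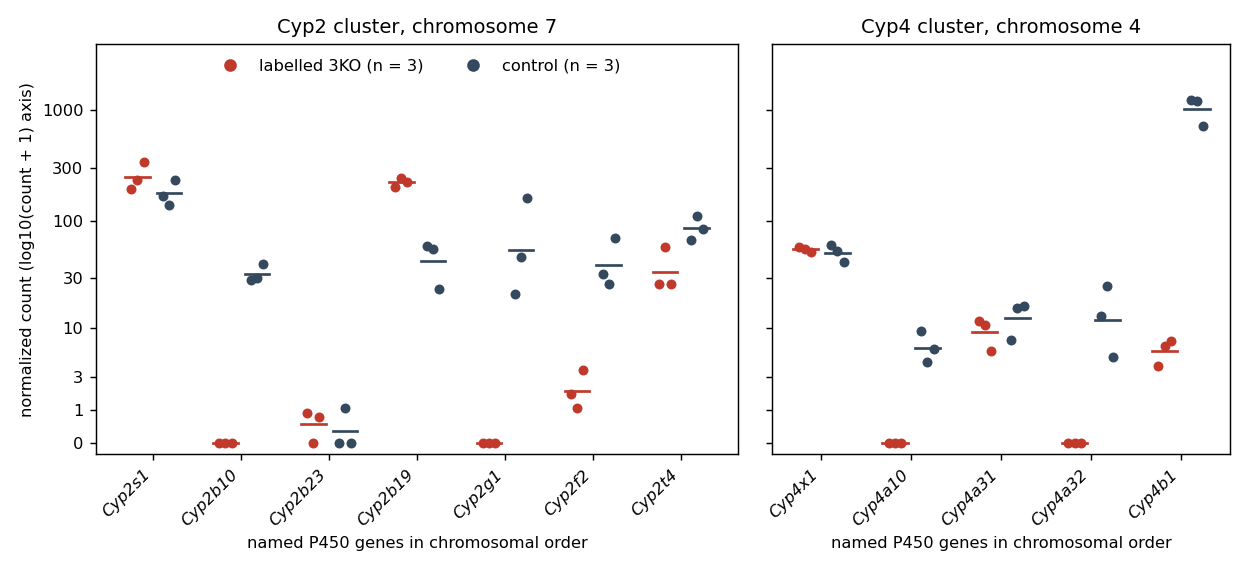
Normalized counts per library (log10(count + 1) axis, bars are means on that axis) of the P450 genes in their order along chromosome 7 (left, 7 genes) and chromosome 4 (right, 5 genes), with 3 libraries labelled 3KO left of 3 controls for each gene. On chromosome 7 *Cyp2b19* is higher in the libraries labelled 3KO (203 to 243 against 23.6 to 59.1 in the controls) and lies between genes that are lower there. On chromosome 4 *Cyp4a10* and *Cyp4a32* are listed at 0 in all libraries labelled 3KO, while *Cyp4a31* between them did not pass.

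Partners and regulators of the P450s were examined as lists. Of 13 tested electron donors, binding partners and P450 enzymes with other names, 2 rose and 0 fell, although 1 (*Cyb5r1*) fell at an unadjusted limma p below 0.05. Over all genes 20.5% were higher and 15.3% lower, and the median log2 change of the list was 0.12. *Cyb5b*, the cytochrome b5 of the mitochondrial outer membrane, averaged 2130.2 ± 146 in the libraries labelled 3KO and 1122 ± 279 in the controls (log2 change 0.95 ± 0.18, adjusted p = 0.00303). *Cyp51*, which removes a methyl group in cholesterol synthesis, also rose (log2 change 0.77 ± 0.16, adjusted p = 0.00493). *Por* had 848, 968 and 719 in the libraries labelled 3KO and 1082, 737 and 919 in the controls and did not pass (adjusted p = 0.7).

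Of 15 tested receptors and regulators, the median was −0.18, and 4 rose and 4 fell, beside 20.5% higher and 15.3% lower over all genes. *Ahr* had 3023, 2992 and 2807 in the libraries labelled 3KO and 6615, 5702 and 6042 in the controls (log2 change −1.06 ± 0.12, adjusted p = 0.00016), and its partner *Arnt* did not pass (adjusted p = 0.467). The retinoic acid receptor *Rarg* fell (log2 change −1.23 ± 0.18, adjusted p = 0.000798). The fatty acid receptor *Ppard* rose (1.46 ± 0.18, adjusted p = 0.000272), as did *Nfe2l2*, the regulator of antioxidant genes (0.77 ± 0.18, adjusted p = 0.00761).

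Among 39 tested enzymes of conjugation and other drug metabolism the median was 0.36, and 13 rose and 8 fell, beside the same shares over all genes. The epoxide hydrolase *Ephx1* had 1749, 2011 and 2147 in the libraries labelled 3KO and 164, 255 and 292 in the controls (log2 change 3.09 ± 0.22, adjusted p = 1.26e-05). The glutathione transferase *Gsta4* (3.23 ± 0.37, adjusted p = 0.000198) and the sterol sulfotransferase *Sult2b1* (2.47 ± 0.27, adjusted p = 0.000139) rose too. The flavin monooxygenase *Fmo1* fell, with 39.4, 41.8 and 46.4 in the libraries labelled 3KO and 372, 452 and 724 in the controls (log2 change −3.52 ± 0.27, adjusted p = 1.77e-05).

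Eicosanoid enzymes outside the P450 family were the last list. Of 17 tested, 8 rose and 2 fell (median 0.47), beside the 20.5% and 15.3% over all genes. The lipoxygenase *Alox12* had 1108, 1061 and 952 in the libraries labelled 3KO and 129, 73.3 and 92.8 in the controls (log2 change 3.42 ± 0.22, adjusted p = 8.39e-06). *Ephx3*, an epoxide hydrolase of epidermal lipids, rose as well (3.19 ± 0.20, adjusted p = 6.17e-06), and so did *Lta4h* and *Alox5* of leukotriene synthesis (1.48 ± 0.14, adjusted p = 6.04e-05, and 2.55 ± 0.40, adjusted p = 0.00114). *Ptgs2* had 289, 463 and 473 in the libraries labelled 3KO and 1112, 539 and 602 in the controls (adjusted p = 0.0543).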

How the data were processed

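RNA from 3 libraries labelled 3KO and 3 labelled control had been amplified from 10 ng of total RNA and sequenced as single reads, per the labels' protocols. The authors deposited 1 table of normalized counts per gene, a signal that is not whole; kallisto 0.42.5 and DESeq2 are named in the submitters' processing notes, and the annotation and strand setting are not given in the sources used here. Because the values are not whole reads, no count test was run. Genes with a mean of at least 10 over the 6 libraries (23006 of 38258) were fitted as log2(normalized count + 1) with limma 3.58.1 in R 4.3.3 (trend and robust, two-sided), with Benjamini-Hochberg adjustment over all of them and a threshold of 0.05. On simulated data of 23006 genes, 22% of planted 1.5-fold changes were called, 60% of 2-fold, 98% of 4-fold and 100% of 8-fold ones, and 3 of 143 calls were false. The simulation planted 50 changes of each size, with an assumed spread and no outlying library. Far more genes were called in the real data, so these rates may not hold there.

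Levels per kilobase use the mean length of protein-coding transcripts in GENCODE M21 (GRCm38), and shared sequence was counted as 31-base words. Promoters are RefSeq windows on GRCm38.p6. Gene coordinates equal GENCODE M21 for 53 of 56 members, and none are printed for the others. The members and lists were chosen with earlier results of these data known. Named genes are those that passed, the 10 most abundant members that did not, 5 untested members, and up to 4 called and 3 uncalled genes of each list; others are named as chosen after their values were seen. *Cyp1a1*, *Cyp4a10*, *Cyp4a31*, *Cyp19a1* and *Cyp27b1* are among those. Alternatives were other pseudocounts, filters, scalings (trimmed-mean-of-M (TMM) factors, quantile), a fit without trend and robust, a replicate block, removal of GC and length dependence, and leaving out each library.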

Additional observations from a re-analysis of the deposited data

How the results depend on the processing

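The P450 counts (6 higher, 6 lower) came to 2 and 3 of 15 tested with a mean of at least 50, where fewer genes were tested. They came to 5 and 7 with quantile normalization, 5 and 8 with GC and length removed, and 6 and 8 of 55 tested with no filter on low values. TMM factors and the other pseudocounts left them at 6 and 6. *Cyp2e1* passed as lower with quantile normalization and with GC and length removed, and *Cyp27b1* with GC and length removed. Leaving out 1 library gave 5 to 9 higher and 5 to 8 lower, with the highest counts without control replicate 3. Replicate numbers did not pair the libraries (same-number correlations 0.061, −0.023 and 0.022); with them as a replicate block 5 were higher, without *Cyp4v3*, and 6 lower. Partners that fell numbered 1 with pseudocount 0.5, a mean of at least 50, TMM factors or quantile normalization, and 4 with GC and length removed, against 0. Receptors that fell numbered 2 without trend and robust and 9 with GC and length removed, and 2 to 4 without 1 library. Conjugation enzymes that rose numbered 8 with a mean of at least 50. Eicosanoid enzymes that fell numbered 0 without trend and robust and 0 to 3 without 1 library. Without 1 library the log2 change of the targeted gene Eed ranged from −1.01 to −0.67, and its call was lost without 3KO replicate 1 or 3 or control replicate 2.

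The median over all genes lay at −0.17 after quantile normalization (4177 higher, 4974 lower) and at −0.18 with GC and length dependence removed (3737 and 5724), against 0.01 (4726 and 3516). Changes of sign were limited to genes that had not passed. With quantile normalization the log2 change was −0.10 for *Cyp4f13*, −0.21 for *Cyp20a1*, −0.12 for *Cyp4f17*, −0.13 for *Cyp4x1*, −0.28 for *Cyp2j13* and −0.27 for *Cyp7b1*. With GC and length removed it was −0.36 for *Cyp4f13*, −0.18 for *Cyp2s1*, −0.0052 for *Cyp20a1*, −0.070 for *Cyp4f16*, −0.29 for *Cyp4f17*, −0.0094 for *Cyp2u1*, −0.053 for *Cyp4x1*, −0.20 for *Cyb5r3*, −0.69 for *Rara* (adjusted p = 0.00936) and −0.029 for *Arnt*. TMM factors gave −0.0011 for *Cyp20a1*. Without 1 library the log2 change ranged from −0.12 to 0.32 for *Cyp4f13*, −0.050 to 0.14 for *Cyp20a1*, −0.078 to 0.365 for *Cyp4f17*, −0.040 to 1.11 for *Cyp1b1*, −0.043 to 0.21 for *Cyp4x1*, −0.12 to 0.64 for *Cyp2j13*, −0.25 to 0.027 for *Por* and −0.32 to 0.017 for *Vdr*. The cause was not tested. Of 450 comparisons of a named P450 gene with an alternative, 407 kept direction and side of the threshold. These include *Cyp4b1*, which had no test and was counted by direction alone.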
